A study of Homo sapiens with 12 samples.

Results

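The transcripts of 10 genes of heme breakdown, iron storage and iron transport were followed in MOLM-13 and THP-1 cells after treatment with Jiyuan oridonin A (JOA). The genes were chosen by symbol: HMOX1, HMOX2, BLVRA and BLVRB of heme breakdown, FTL, FTH1 and NCOA4 of iron storage and its turnover, and TFRC, SLC11A2 and SLC40A1 of iron import and export. All 10 symbols were found among the 20030 gene rows of the expression table. MOLM-13 and THP-1 are established acute myeloid leukemia (AML) lines with a rearrangement of the MLL gene (MLLr), and MOLM-13 cells carry an internal tandem duplication of FLT3, whereas THP-1 cells have wild-type FLT3. JOA is an ent-kaurene diterpenoid. The 12 mRNA-seq libraries fell into 4 groups of 3, which were MOLM-13 cells with DMSO as control, MOLM-13 cells with 0.5 μM JOA, THP-1 cells with DMSO as control and THP-1 cells with 2 μM JOA, all for 48 h. Cell line and dose therefore differed together, so that a difference in response between the lines cannot be told apart from one between the doses, and each line stands for the leukemia of 1 patient. The paper states in general that experiments were repeated, and its mRNA-seq legend names 2 independent experiments. Neither says whether the 3 libraries of a group were separate cultures, so the p-values measure the spread between these libraries. The time of 48 h is that of the sample labels and of the paper's methods. The paper's figure legend on its mRNA-seq gives a longer time.

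Heme oxygenases open the heme ring and release iron, carbon monoxide and biliverdin, which biliverdin reductases turn into bilirubin. HMOX1 encodes the inducible oxygenase and HMOX2 the constitutive one, while BLVRA and BLVRB encode reductases of different biliverdin isomers. Free iron is stored in ferritin, a shell of heavy (FTH1) and light (FTL) chains, and NCOA4 carries ferritin to the lysosome for iron release. Cells take up iron through the transferrin receptor TFRC and move it out of endosomes through SLC11A2 (DMT1), and the exporter SLC40A1 (ferroportin) releases it from the cell. In macrophages, which take heme from old red cells, HMOX1 and SLC40A1 are central to iron recycling.

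Iron also sets the use of several of these messages through short hairpins called iron-responsive elements, which iron-regulatory proteins bind. Bound in a 5′ UTR such a hairpin blocks translation, an effect that mRNA levels do not contain. Bound in a 3′ UTR it protects the mRNA from decay, and so acts on the mRNA level itself. A search of GENCODE v29 transcripts on GRCh38 for an unpaired C, 5 stem bases, the loop CAGTGN with any base but G at its last position, and 5 bases that pair with the stem (G with T allowed) found matches in the 5′ UTR of FTL, FTH1 and SLC40A1 and in the 3′ UTR of TFRC. Transcripts were searched on their own strand. In the sequences below, each 30 bases long and written 5′ to 3′ as the transcript reads, capitals mark the loop.
FTL, 5′ UTR, chr19:48965335-48965364, plus strand: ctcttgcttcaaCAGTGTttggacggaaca
FTH1, 5′ UTR, chr11:61967573-61967602, minus strand: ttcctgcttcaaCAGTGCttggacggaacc
SLC40A1, 5′ UTR, chr2:189580660-189580689, minus strand: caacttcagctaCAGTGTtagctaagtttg
TFRC, 3′ UTR, chr3:196050978-196051007, minus strand: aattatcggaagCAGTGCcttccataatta
TFRC, 3′ UTR, chr3:196050574-196050603, minus strand: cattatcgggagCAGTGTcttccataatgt
TFRC, 3′ UTR, chr3:196050509-196050538, minus strand: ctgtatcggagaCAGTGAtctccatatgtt
TFRC, 3′ UTR, chr3:196050462-196050491, minus strand: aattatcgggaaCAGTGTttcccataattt

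The 5′ UTR elements of FTL and FTH1 were identical at 26 of 30 bases. The pattern was found in a 5′ UTR of 22 of 18675 protein-coding genes (0.118%) and in a 3′ UTR of 101 of 18989 (0.532%), against 3 and 1 of the 10 genes here. A match is a description of these letters, and the other 6 genes do not hold them in the transcripts searched. The search required every stem base to pair, so an element with a mismatch or bulge there would be missed. A gene without a match may therefore still carry an element, and TFRC may carry more than those shown. The genes lie apart in the genome on GRCh38. HMOX1 (ENSG00000100292.16) spans 35380361 to 35394214 on chromosome 22, FTL (ENSG00000087086.14) spans 48965301 to 48966878 on chromosome 19, FTH1 (ENSG00000167996.15) spans 61959718 to 61967660 on chromosome 11, and BLVRB (ENSG00000090013.10) spans 40447765 to 40465840 on chromosome 19.

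Levels are FPKM as the authors deposited them, that is, fragments scaled to the length of the gene and to the mapped fragments of the library, so that genes can be compared per length. Total depth is unknown, but steps in the low values put every library within 0.896 to 1.07 of the depth of the first control of its line. Within a line, log2 values of all library pairs correlated at 0.991 to 0.997 in MOLM-13 cells and 0.988 to 0.995 in THP-1 cells, and no library stood apart. All 9 myeloid markers of the list were above 0 in all 12 libraries, with a summed level of 1073 to 3644 FPKM per library. Most of that sum was LYZ (755 to 3292 FPKM), and CD14 was low, at 0.0743 to 0.978 FPKM. Of 10 erythroid markers, 6 were at 0 in every library, SLC4A1 among them, and the list summed to 3.49 to 7.32 FPKM, most of it EPOR. Lymphoid markers summed to 0.746 to 6.66 FPKM over 6 genes. The 5 epithelial and stromal markers summed to 14.1 to 34.1 FPKM, nearly all of it PECAM1, which myeloid cells also express. In bulk RNA, fewer cells of a type and less RNA per cell cannot be told apart.

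The levels of the 10 genes in untreated cells covered more than 4 orders of magnitude in MOLM-13 cells and more than 3 in THP-1 cells. FTL was the most abundant at 2058 ± 268 FPKM (SD, n = 3) in MOLM-13 control cells and 2740 ± 92.3 in THP-1 control cells. FTH1 came next at 371 ± 49.8 and 370.2 ± 6.81 FPKM. TFRC stood at 87.6 ± 6.82 and 64.6 ± 10.7 FPKM, and NCOA4 at 54.7 ± 4.08 and 44.4 ± 0.605 FPKM. In MOLM-13 cells the order then ran HMOX2, BLVRB, BLVRA, SLC11A2, HMOX1 and SLC40A1, and no 2 neighbours overlapped in control or in JOA libraries. In THP-1 control cells it ran BLVRA, BLVRB, SLC40A1, HMOX2, SLC11A2 and HMOX1, with an overlap between SLC40A1 and HMOX2 only. HMOX1 was thus the lowest member in THP-1 control cells and the second lowest in MOLM-13 control cells.

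The lines differed most in the exporter SLC40A1, the reductase BLVRA and the oxygenase HMOX2. SLC40A1 read 5.67, 6.37 and 6.59 FPKM in the 3 THP-1 control libraries and 0.0134, 0.0147 and 0.0439 FPKM in the MOLM-13 control libraries. It was listed at 0 in 2 of the MOLM-13 JOA libraries and at 0.0563 FPKM in the other one, so ferroportin mRNA was close to absent in MOLM-13 cells. The fitted log2 difference of 5.68 depends on the pseudocount and passed the filter on low values through THP-1 cells alone. BLVRA read 15.2, 15.02 and 15.3 FPKM in THP-1 control cells against 4.20, 4.20 and 4.30 in MOLM-13 control cells, a log2 difference of 1.82 (SE 0.06, limma, Benjamini-Hochberg adjusted p = 1.23e-07). HMOX2 ran the other way, at 5.80, 5.58 and 4.93 FPKM in THP-1 control cells and 14.9, 12.4 and 13.5 in MOLM-13 control cells (log2 difference -1.31, SE 0.09, limma adjusted p = 5.58e-06).

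Apart from SLC40A1, which entered the test through 1 line alone and is not counted, BLVRA and HMOX2 passed both thresholds, an adjusted p under 0.05 and an absolute log2 difference of at least 0.58. That is 1 of the other 9 genes higher and 1 lower in THP-1 cells, and of all 12635 genes tested 25% were called higher and 19% lower. A further 3 genes passed on the adjusted p alone with a smaller difference. Together with BLVRA and HMOX2 they passed on the adjusted p at any difference, as did 71.2% of all genes tested. FTL was higher in THP-1 control cells by 0.42 on the log2 scale (limma adjusted p = 0.00952), while NCOA4 (-0.30, adjusted p = 0.00352) and TFRC (-0.45, adjusted p = 0.00987) were lower. HMOX1, BLVRB, FTH1 and SLC11A2 overlapped between the lines, with log2 differences of 0.15, 0.05, 0.01 and 0.07 and adjusted p of 0.475 or more. The 95% interval for FTH1 ran from -0.22 to 0.24, and that for HMOX1 from -0.55 to 0.86.

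**Figure D1:**
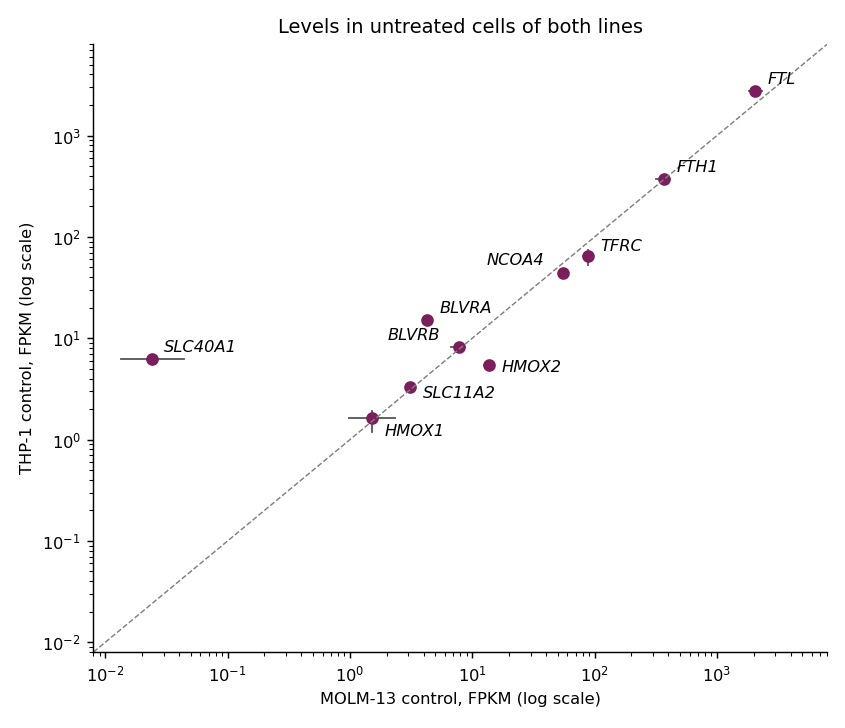
Mean FPKM of the 10 genes in THP-1 control cells (y axis, log scale) against MOLM-13 control cells (x axis, log scale). Points are means of 3 libraries, lines span the lowest to the highest library, and the dashed line marks equal levels. SLC40A1 (6.21 against 0.0240 FPKM) and BLVRA (15.2 against 4.23) lie above the line and HMOX2 (5.44 against 13.6) below it, while HMOX1, BLVRB, FTH1 and SLC11A2 sit on it.

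In THP-1 cells, HMOX1, FTL, FTH1 and BLVRB mRNA rose under JOA by limma once replicate numbers were taken as blocks, HMOX1 by more than the fold threshold and the others by less. Without the block, none of the 10 genes passed, and the pairing by replicate number was inferred from these same data. HMOX1 read 1.18, 1.90 and 1.77 FPKM in untreated THP-1 cells and 3.20, 3.23 and 5.64 under JOA. Every JOA library was above every control library, and JOA replicate 3 was well above the other two. The log2 fold change was 1.24 (SE 0.25, n = 3 and 3), or 2.36-fold on the log2(FPKM + 0.1) scale. The adjusted p was 0.0805 in limma without a block, which missed the threshold, and 0.00941 in the blocked fit, which passed it. All 3 same-numbered pairs were higher under JOA, by 1.37, 0.74 and 1.62. With the block and 1 pair left out at a time, HMOX1 stayed past both thresholds, at log2 fold changes of 1.05 to 1.49. Even so, HMOX1 remained a message of low abundance: it ranked 8953 to 9785 of 20030 rows in control cells and 6377 to 7892 after JOA.

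**Figure D2:**
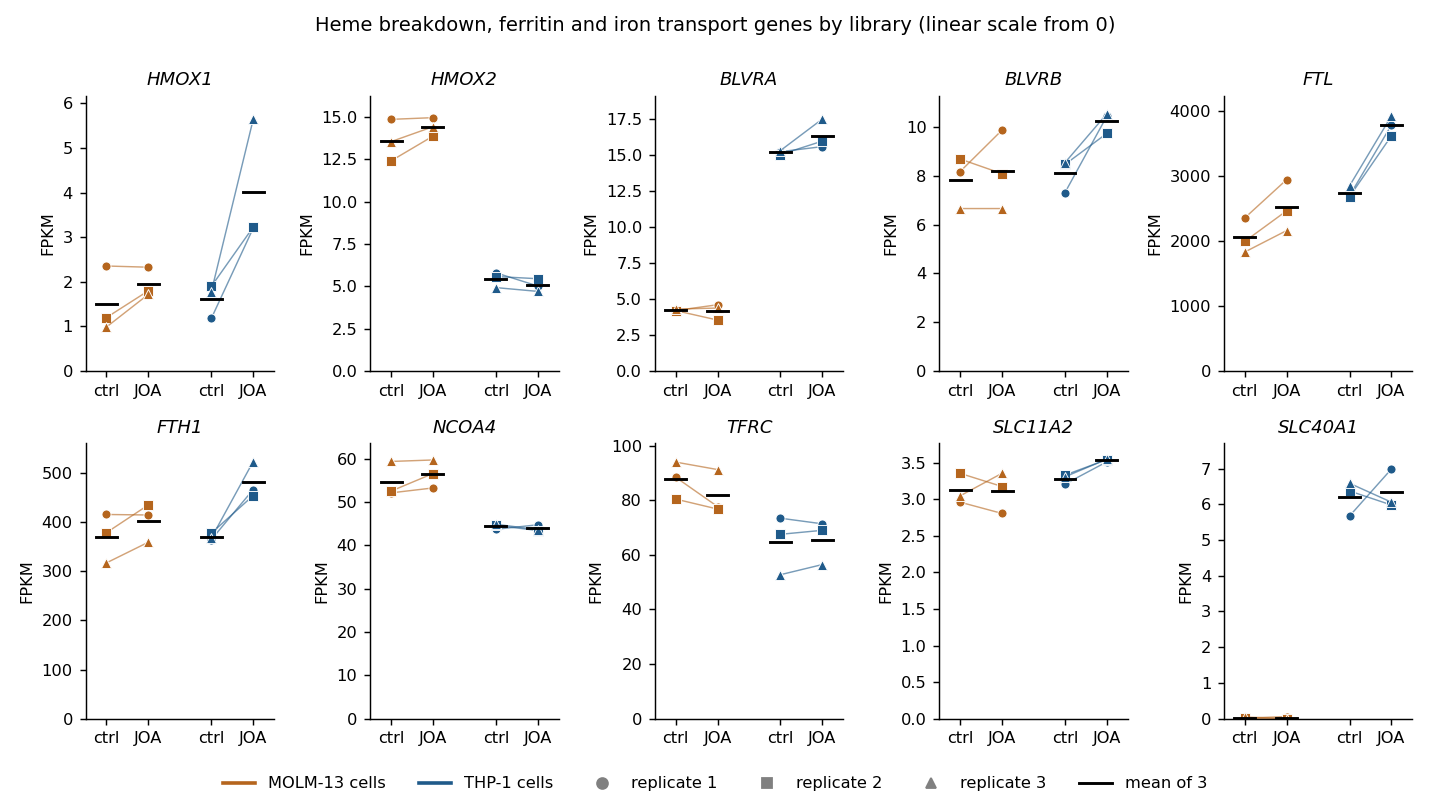
FPKM (y axis, linear, from 0) of each of the 10 genes in all 12 libraries. Colors mark the cell line, symbols the replicate number, thin lines join control and JOA libraries with the same number, and black bars are means of 3. In THP-1 cells the JOA points of HMOX1 (3.20 to 5.64 FPKM) and FTL (3616 to 3922 FPKM) lie above all control points, and in MOLM-13 cells SLC40A1 lies at the axis.

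The constitutive oxygenase HMOX2 did not pass the test. It read 5.80, 5.58 and 4.93 FPKM in THP-1 control cells and 5.02, 5.45 and 4.70 after JOA (log2 fold change -0.10, 95% interval -0.30 to 0.10, limma adjusted p = 0.609). The groups overlapped, and all 3 pairs were lower (-0.20 to -0.03). Since both oxygenases are measured per length in the same library, their ratio is free of library scaling. HMOX1 per HMOX2 was 0.203, 0.340 and 0.360 in control libraries and 0.638, 0.592 and 1.20 after JOA. The groups did not overlap, with p = 0.1 in an exact two-sided permutation test, the smallest p that 3 against 3 libraries allow, and 0.45 after adjustment over the 9 ratio tests made. HMOX1 mRNA exceeded HMOX2 mRNA in 1 JOA library and in no control library, and after JOA the ranges of these genes overlapped in the order of levels.

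Of the biliverdin reductase genes, BLVRB passed on the adjusted p with the block and BLVRA did not. BLVRB, which encodes the flavin and biliverdin-IXβ reductase, read 7.31, 8.46 and 8.53 FPKM in THP-1 control cells and 10.4, 9.73 and 10.5 after JOA. The groups did not overlap, and the log2 fold change was 0.34 (SE 0.08, limma adjusted p = 0.0914, and 0.0307 with the block). BLVRA, which encodes the biliverdin-IXα reductase, read 15.2, 15.02 and 15.3 FPKM in control cells and 15.6, 16.0 and 17.5 after JOA (0.10, 95% interval -0.03 to 0.24, adjusted p = 0.407). These groups did not overlap either, but BLVRA values spanned a narrow range. The BLVRB to BLVRA ratio was 0.480, 0.563 and 0.558 before and 0.670, 0.610 and 0.603 after JOA, again with no overlap (p = 0.1, exact permutation test, adjusted 0.45).

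Both ferritin chains rose in THP-1 cells in the blocked fit. FTL, the light chain, read 2694, 2680 and 2846 FPKM in control cells and 3780, 3616 and 3922 after JOA. Its log2 fold change was 0.46 (SE 0.07, limma adjusted p = 0.0546, and 0.00804 with the block), and the 3 pairs gave close values of 0.49, 0.43 and 0.46. FTL ranked 4 to 6 among the 20030 rows in THP-1 control libraries and 1 in all 3 JOA libraries. Its share of the summed FPKM of a library was 0.913% on average in control and 1.28% in JOA libraries. FTH1, the heavy chain with the ferroxidase site, read 365, 378 and 368 FPKM in control cells and 467, 455 and 524 after JOA, with a log2 fold change of 0.38 (SE 0.07, limma adjusted p = 0.0698, and 0.0133 with the block). FTH1 ranked 109 to 113 before and 74 to 89 after JOA.

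Both chains stayed below the fold threshold of 0.58. With the block and pair 3 left out, FTL had an adjusted p of 0.0553 at a log2 fold change of 0.46. The FTH1 to FTL ratio was 0.135, 0.141 and 0.129 in control and 0.124, 0.126 and 0.134 in JOA libraries, which overlapped (p = 0.2, exact permutation test). The annotation names 25 FTH1 and 16 FTL pseudogenes, and how the counting treated reads shared with them is not given in the sources used here, so the levels of both chains are uncertain to that extent. NCOA4, the ferritin receptor of lysosomal turnover, read 43.7, 44.6 and 44.9 FPKM before and 44.8, 43.4 and 43.7 FPKM after JOA. The 95% interval around its log2 fold change of -0.01 was the narrowest of the 10 genes in THP-1 cells, from -0.11 to 0.08.

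The iron transporters overlapped or shifted by little in THP-1 cells. TFRC read 73.4, 67.5 and 52.7 FPKM in control cells and 71.4, 69.0 and 56.5 after JOA, and replicate 3 was the lowest of both groups (log2 fold change 0.03, 95% interval -0.28 to 0.34, limma adjusted p = 0.939). Relative to FTH1, TFRC was lower under JOA in all 3 pairs, at ratios of 0.201, 0.179 and 0.143 before and 0.153, 0.152 and 0.108 after, yet the groups overlapped (p = 0.3, exact permutation test). SLC11A2 read 3.21, 3.33 and 3.31 FPKM before and 3.51, 3.55 and 3.55 after JOA. Its groups did not overlap, with a log2 fold change of 0.10 (95% interval -0.05 to 0.26, adjusted p = 0.488). SLC40A1, the exporter, read 5.67, 6.37 and 6.59 FPKM before and 6.99, 5.98 and 6.06 after JOA, so the order within pairs differed from pair to pair (0.03, 95% interval -0.17 to 0.23). TFRC per SLC40A1, import against export, averaged 3.37 on the log2 scale in both groups.

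Counted together, 0 of the 10 genes passed both thresholds in THP-1 cells without the block, where 0.134% of 12712 genes tested did so. Of the 10 genes, 4 had an unadjusted p under 0.05, as had 2146 of all genes tested. With the block, 1 of 10 was called higher (HMOX1), against 0.637% of all genes tested. On the adjusted p alone with the block, 4 of 10 were higher (HMOX1, FTL, FTH1 and BLVRB) and none lower, against 5.37% of all genes tested that were higher. In 6 of 10 genes, all JOA libraries were above all control libraries (those 4, BLVRA and SLC11A2), which held for 14.6% of all genes tested, and the opposite was seen in 0 of 10, against 8.81%. The median log2 fold change was 0.10 over the 10 genes and 0.02 over all genes tested. The 10 genes were chosen with earlier results of these data known, so these counts are not independent evidence of their direction.

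**Figure D3:**
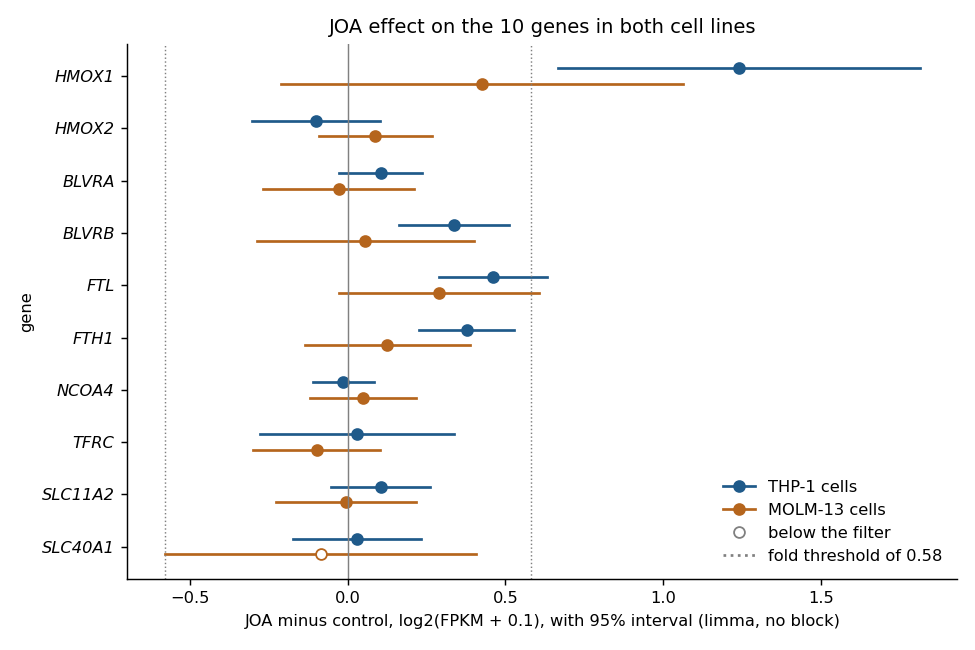
JOA effect on each of the 10 genes as the difference of log2(FPKM + 0.1), JOA minus control (x axis), in THP-1 (blue) and MOLM-13 cells (orange). Points are limma estimates from 3 and 3 libraries and bars their 95% intervals, dotted lines mark the fold threshold of 0.58, and the open point was below the filter on low values. In THP-1 cells the intervals of HMOX1, BLVRB, FTL and FTH1 lie above 0, and only that of HMOX1 lies wholly above 0.58. In MOLM-13 cells all intervals include 0.

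In MOLM-13 cells, at the lower dose, no member passed the test. HMOX1 read 2.35, 1.20 and 0.988 FPKM in MOLM-13 control cells and 2.33, 1.80 and 1.72 after JOA. Control replicate 1 was as high as any JOA library, and its own pair did not differ (-0.02), while the other pairs were higher by 0.55 and 0.74. The log2 fold change was 0.42 (SE 0.28, 95% interval -0.21 to 1.06, limma adjusted p = 1.00, and 0.392 with the block). Without control replicate 1 it was 0.77, and without control replicate 3 it was 0.19, neither past the threshold.

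FTL had pairs that differed least from each other among the genes of ferritin. It read 2352, 1993 and 1829 FPKM in MOLM-13 control cells and 2941, 2463 and 2159 after JOA. The groups overlapped because replicate 1 was the highest and replicate 3 the lowest in both, but each pair was higher by 0.24 to 0.32 (log2 fold change 0.29, SE 0.14, adjusted p = 1.00, and 0.310 with the block). Leaving out 1 library moved this value between 0.17, without JOA replicate 1, and 0.40. FTL ranked 12 to 18 before and 6 to 15 after JOA. FTH1 read 416, 379 and 317 FPKM before and 415, 436 and 360 after, with 2 of 3 pairs higher (0.13, 95% interval -0.14 to 0.39, and 0.018 without control replicate 3).

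The other members of MOLM-13 cells differed by at most 0.10 in size on the log2 scale. TFRC read 88.5, 80.4 and 94.0 FPKM before and 77.7, 76.8 and 91.3 after JOA, lower in all 3 pairs (-0.19 to -0.04, 95% interval of the log2 fold change -0.30 to 0.10). HMOX2 read 14.9, 12.4 and 13.5 before and 14.96, 13.9 and 14.4 after, higher in all 3 pairs by 0.01 to 0.16. BLVRB (8.17, 8.68 and 6.66 before, 9.87, 8.08 and 6.66 after), BLVRA (4.20, 4.20 and 4.30 before, 4.61, 3.54 and 4.38 after) and SLC11A2 (2.96, 3.36 and 3.05 before, 2.81, 3.18 and 3.36 after) overlapped, and their pairs disagreed in sign. NCOA4 read 52.1, 52.5 and 59.4 before and 53.3, 56.6 and 59.7 after JOA. SLC40A1, at 0.0563 FPKM or less in every MOLM-13 library, was below the filter of a mean FPKM of 0.1. The 4 ratios formed in MOLM-13 cells gave p from 0.3 to 0.6 in exact permutation tests.

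Of the 9 members that passed the filter in MOLM-13 cells, 0 were called, and 0 of all 11693 genes tested (0%) were called by limma, with 481 genes at an unadjusted p under 0.05 and no call with the block. None of the 9 had groups that did not overlap, which was so for 5.1% of all genes tested in the higher and 4.55% in the lower direction. Their median log2 fold change was 0.06, against 0.01 over all genes tested.

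Whether the JOA effect differed between the lines was tested with the interaction over all 12 libraries. None of the 10 genes passed, and neither did any of 12626 genes tested (0%). HMOX1 had the largest difference of the 10, 0.82 more in THP-1 cells on the log2 scale (SE 0.42, 95% interval -0.11 to 1.74, limma adjusted p = 0.735). Leaving out 1 library moved it between 0.47, without MOLM-13 control replicate 1, and 1.05. With the block its adjusted p was 0.207, when 0.0475% of all genes tested passed and again no member did. BLVRB (0.28), FTH1 (0.25) and FTL (0.17) had intervals that included 0, and without MOLM-13 JOA replicate 3 the values of BLVRB and FTL were 0.14 and 0.066. HMOX2, higher in all 3 MOLM-13 pairs and lower in all 3 THP-1 pairs, had a difference of -0.19 (95% interval -0.45 to 0.07, adjusted p = 0.799). A larger effect in THP-1 cells than in MOLM-13 cells was therefore not shown for any of the 10 genes. For all 12626 genes, 914 had an unadjusted p under 0.05.

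The neighbouring pathways were read from 7 lists with 63 further genes, of which 54 passed the filter in THP-1 cells. None was called without the block. On the adjusted p alone at any fold change 3 passed, all below the fold threshold, against 0.299% of all genes tested. These were PGD of the pentose phosphate pathway (0.50, limma adjusted p = 0.0394), SRXN1, which encodes sulfiredoxin (0.45, 0.0497), and MCOLN1, a lysosomal cation channel that passes iron (0.50, 0.0466). MCOLN1 read 4.07, 3.77 and 3.89 FPKM before and 5.92, 5.44 and 5.36 after JOA in THP-1 cells, and 6.86 to 7.68 before and 6.76 to 8.06 after in MOLM-13 cells. With the block, 13 of the 54 genes had an adjusted p under 0.05 and were higher, and 1 was lower, against 5.37% higher and 2.69% lower of all genes tested. All JOA libraries exceeded all control libraries in 14 of the 54, against 14.6% of all genes tested, and the reverse was seen in none, against 8.81%. The lists, too, were chosen with earlier results of these data known.

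The list of heme transport and hemoglobin uptake had 3 genes above and 5 below 0 among the 8 that passed the filter, with a median log2 fold change of -0.05. Those below 0 included the transporters FLVCR2 (-0.28) and ABCB6 (-0.32) and the receptor LRP1 (-0.15), all with overlapping groups. In 2 of the 8 genes all JOA libraries were above all control libraries, against 14.6% of all genes tested. The reverse was seen in 0, against 8.81%. SLC48A1, the heme transporter of the lysosome (2.80, 2.40 and 2.95 FPKM before, 3.70, 3.59 and 3.35 after), and the heme-binding protein HEBP1 (6.90, 7.76 and 5.36 before, 9.24, 8.58 and 8.21 after) did not overlap between the groups, with log2 fold changes of 0.38 and 0.39 (limma adjusted p = 0.121 and 0.187, and 0.0482 and 0.0406 with the block). FBXL5, the iron-sensing subunit that marks the iron-regulatory protein IREB2 for decay, read 13.1, 15.3 and 14.7 FPKM before and 18.9, 18.5 and 17.3 after JOA (0.35, adjusted p = 0.0826, and 0.0261 with the block). The mRNAs of the iron-regulatory proteins themselves did not pass: ACO1 had a log2 fold change of 0.07 and IREB2 of -0.04. The erythroid enzyme ALAS2 was listed at 0 in all libraries, and its ubiquitous counterpart ALAS1, which starts heme synthesis, had a log2 fold change of 0.22 (adjusted p = 0.277, and 0.0271 with the block), with overlapping groups.

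Of 11 mitochondrial iron genes in THP-1 cells, 0 had groups that did not overlap, against 14.6% higher and 8.81% lower of all genes tested. Their median log2 fold change was -0.04. ABCB10, a mitochondrial transporter of the heme pathway, was the 1 gene of the lists that was lower with the block (-0.36, limma adjusted p = 0.237, and 0.0168 with the block). The mRNAs of NFE2L2 (NRF2), the activator of HMOX1, and BACH1, its repressor, had log2 fold changes of 0.08 and 0.06, with overlapping groups. Levels and activity of these proteins were not measured here. Of 10 other electrophile-induced genes that share NRF2 as activator with HMOX1, FTL and FTH1, 7 had JOA libraries above all control libraries, against 14.6% of all genes tested. The list had a median log2 fold change of 0.43, against 0.02 over all genes tested. OSGIN1, an oxidative stress gene, read 1.31, 0.967 and 1.75 FPKM before and 2.87, 2.70 and 3.47 after JOA (1.14, adjusted p = 0.0698, and 0.00659 with the block). NQO1, a quinone reductase, had a log2 fold change of 0.42 (adjusted p = 0.0543, and 0.00792 with the block), and GCLC, the catalytic subunit of glutathione synthesis, had -0.05. This list was assembled with earlier results of these data known, so its count is not independent evidence of its direction.

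In MOLM-13 cells the 63 genes gave no call with or without the block. Of 53 that passed the filter, 5 did not overlap in the higher and 1 in the lower direction, against 5.1% and 4.55% of all genes tested. These counts are small, and the lists were chosen with earlier results of these data known. The 5 included CYBRD1, a ferric reductase (log2 fold change 0.31), and ME1 and PGD, which supply NADPH (0.26 and 0.22). FLVCR2, a heme and choline transporter, had pairs that were higher in MOLM-13 cells (0.09 to 0.41) and lower in THP-1 cells (-0.36 to -0.19). Its interaction of -0.55 had an adjusted p of 0.512 in limma.

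**Figure D4:**
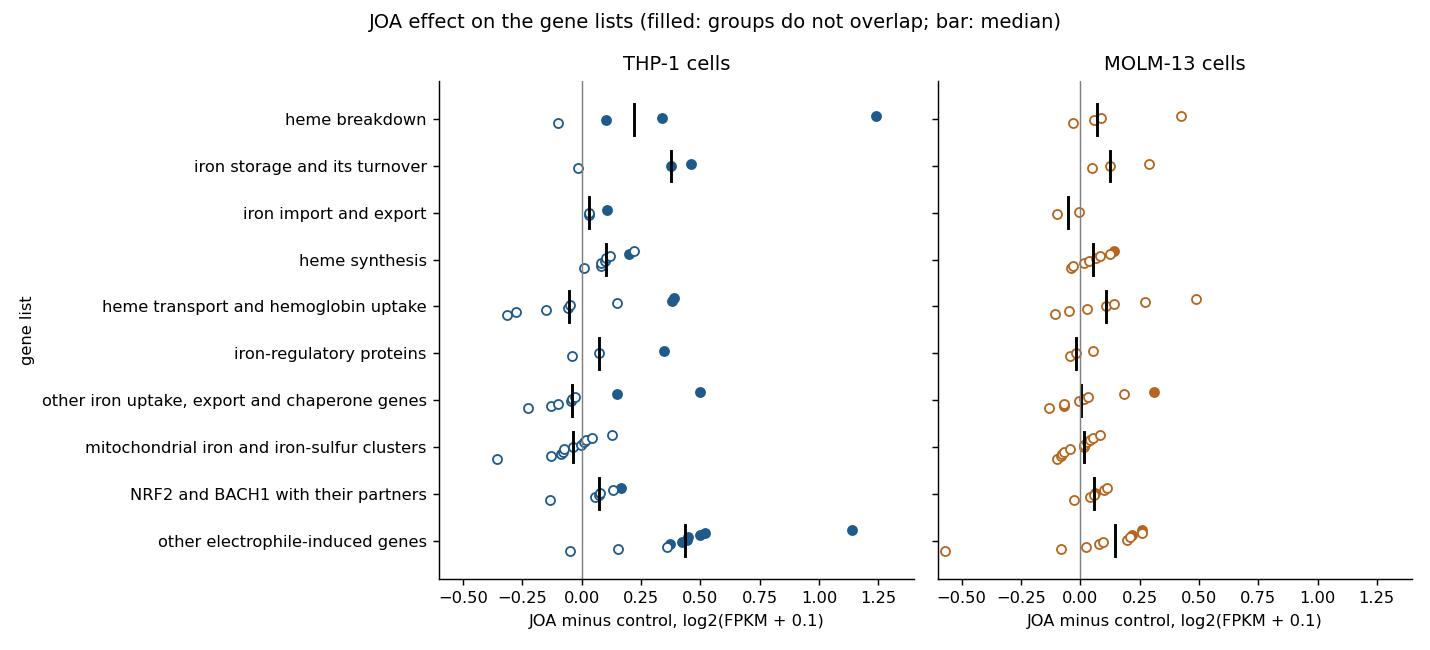
JOA effect (x axis, JOA minus control in log2(FPKM + 0.1)) of the genes in the 3 lists of the 10 members and the 7 neighbouring lists (y axis), for genes that passed the filter. Each point is a gene, filled points have control and JOA libraries that do not overlap, and the black bars are list medians. In THP-1 cells (left) the medians of the iron storage list (0.38) and of the other electrophile-induced genes (0.43) lie furthest from 0, and in MOLM-13 cells (right) the list medians lie between -0.05 and 0.15.

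Of the 9 myeloid markers in THP-1 cells, 1 was called higher and 1 lower with the block and 0 without it, against 0.637% higher and 0.629% lower of all genes tested with the block. ITGAM (CD11b), an integrin of mature myeloid cells, read 2.81, 4.43 and 4.58 FPKM before and 6.77, 6.47 and 5.94 after JOA (0.71, limma adjusted p = 0.103, and 0.0348 with the block). MPO, an enzyme of immature myeloid cells, read 28.3, 19.1 and 13.2 before and 18.5, 13.2 and 7.68 after (-0.64, adjusted p = 0.399, and 0.00659 with the block), with overlapping groups. Over the list, 5 markers were above and 4 below 0. LYZ (-0.18), CSF1R (-0.08) and CEBPA (-0.06) were below 0 and CD14 (0.27) above it, all with overlapping groups. CD33 (0.29), FCGR1A (0.23) and SPI1 (0.16) were above 0, and their groups did not overlap. The summed level of the epithelial and stromal list was 23.0 to 26.0 FPKM in control and 28.999 to 34.1 FPKM in JOA libraries, which came from PECAM1 (24.1 against 30.8 FPKM on average). The sums of the erythroid list, 3.49 to 4.14 and 3.95 to 5.22 FPKM, overlapped, as did those of the myeloid and lymphoid lists. The part of these markers in the changes of HMOX1 and ferritin mRNA was not tested.

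The genes whose profile over the 12 libraries was most like that of HMOX1 were found by the root mean square difference of log2(FPKM + 0.1), centred within each line, among 10066 genes whose mean FPKM over all libraries was 1 or more. They were the scavenger receptor MARCO (0.28), OSGIN1 (0.33), TBC1D2 (0.35), the aldo-keto reductase AKR1C1 (0.36) and MCEMP1 (0.37). MARCO averaged 1.28 FPKM in THP-1 control and 2.59 in THP-1 JOA libraries, with log2 fold changes of 0.96 in THP-1 and 0.56 in MOLM-13 cells. MCEMP1, the most abundant of them, averaged 14.6 and 27.0 FPKM (0.88 and 0.34). This likeness is a ranking over libraries that share their treatment and line, and is given with no test.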

How the data were processed

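The authors deposited FPKM values for 20030 gene symbols in 12 libraries, 3 for each of MOLM-13 control, MOLM-13 JOA, THP-1 control and THP-1 JOA. Stranded mRNA libraries were read as 150 bp pairs on an Illumina HiSeq X10. The submitters' processing notes name Trimmomatic, HISAT2, Cufflinks, HTSeq and hg38, without roles or versions. FPKM is scaled to length and mapped fragments by the authors, no further scaling is stated, and counts were not used here, so total depth is unknown and the precision rests on the replicates. Of the rows, 3488 were 0 in all libraries. Relative depth was read from steps in low values.

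From these values, log2(FPKM + 0.1) was taken for genes whose FPKM averaged 0.1 or more in the compared libraries, and groups were compared by limma 3.58.1 in R 4.3.3, with eBayes and its trend option. A gene was called where the p adjusted by Benjamini-Hochberg over all genes tested was under 0.05 and the log2 fold change was 0.58 or more in size. The interaction was judged by the adjusted p alone. The authors' method, DESeq, needs counts. Folds on this scale understate the change of low genes. A gene below the filter was fitted among all genes with any value above 0.

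Replicate numbers come from the sample titles. In both lines, deviations from the group means correlated between control and JOA libraries with the same number (0.407 to 0.580 in MOLM-13 and 0.297 to 0.541 in THP-1 cells). Between different numbers they did so hardly or negatively (-0.439 to 0.0676). Deviations from a mean of 3 libraries sum to 0, so these lower values are not separate support. The paper states no pairing, so the pairing by number was inferred from these same data. The design without the block was the main one, and the blocked value is given where it changes a call. The fits were tested on simulated data with known changes.

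Ratios of genes within a library were compared by exact permutation tests in Python 3.11.15 with scipy 1.17.1. TFRC per SLC40A1 was not formed in MOLM-13 cells, where SLC40A1 was listed at 0. The named genes were the 10 members, list genes that passed a test or did not overlap, markers, and the 5 genes most like HMOX1. ALAS1, ABCB6, ABCB10, FLVCR2, LRP1, GCLC, ALAS2, ACO1, IREB2, NFE2L2 and BACH1 were also named in comparisons where they missed that rule. Those choices were made after their values were seen. The members and lists were chosen with earlier results of these data known. Positions and transcripts are from GENCODE v29 on GRCh38.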

Additional observations from a re-analysis of the deposited data

How the results depend on the processing

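Total depth is unknown, so precision is set by 3 libraries a group. In THP-1 cells 17 genes and 0 members were called. The gene count was 8 with a pseudocount of 1, 0 without a filter, 1 without the trend, 56 in one fit on all 12 libraries and 38 on the adjusted p alone. With the replicate block it was 161, and 1 member, HMOX1, was called. On the adjusted p alone with the block, 1024 genes and 4 members passed. With the block and without pair 1, 2 or 3 it was 162, 207 and 222 genes, with 1 member each time. Leaving out 1 library gave 0 to 1 genes and 0 members. In MOLM-13 cells 0 genes were called, and 1 without a filter or in one fit. The interaction gave 0 genes, 1 with a pseudocount of 1, with rescaling to equal summed FPKM or by the median ratio, 3 without a filter and 6 with the block. Between untreated lines, 9000 genes and 6 members passed on the adjusted p alone, and 9163 and 6 with the block, where same-numbered controls deviated together only weakly (0.0757 to 0.180, each best with its own number, a hint from the data and not from the design). The block changed no other member's call, and the cause of these changes was not tested, apart from the looser threshold.

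No called member changed direction. Values near 0 that changed sign were NCOA4 in THP-1 cells (0.0097 after rescaling to equal summed FPKM) and FTH1 between lines (-0.00020 by the median ratio). With the block, SLC40A1 was -0.10 without pair 1 and TFRC -0.0051 without pair 3 in THP-1 cells. Without 1 library, TFRC ran from -0.11 to 0.13 and SLC40A1 from -0.042 to 0.072 in THP-1 cells. BLVRA ran from -0.10 to 0.082, BLVRB from -0.085 to 0.20 and SLC11A2 from -0.060 to 0.065 in MOLM-13 cells. Between lines, HMOX1 ran from -0.084 to 0.50, BLVRB from -0.059 to 0.13 and FTH1 from -0.10 to 0.094, and the TFRC interaction from -0.011 to 0.23. The log2 ratio difference of BLVRB to BLVRA in MOLM-13 cells ran from -0.039 to 0.27, and that of TFRC to SLC40A1 in THP-1 cells from -0.18 to 0.16. HMOX1 in THP-1 cells ranged from 0.92 to 1.49 over all alternatives.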

Other observations

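Between the untreated lines, genes of the neighbouring iron and heme lists were called about as often as genes in general. FLVCR2, a heme and choline transporter, averaged 7.54 FPKM in MOLM-13 and 1.80 in THP-1 control cells (log2 difference -2.02). SLC25A37 (mitoferrin-1), which carries iron into mitochondria, averaged 22.6 and 5.98 FPKM (-1.90), and TFR2, the second transferrin receptor, averaged 1.59 and 0.540 FPKM (-1.40). CYBRD1, a ferric reductase, ran the other way at 1.48 and 10.7 FPKM (2.77), and NQO1 averaged 6.26 and 24.3 FPKM (1.97). All 5 were called by limma. Of the 54 genes of the neighbouring lists that passed the filter, 9 were called higher and 13 lower in THP-1 control cells. Of all genes tested, 25% were called higher and 19% lower. Of the 11 mitochondrial iron genes 0 were called higher and 4 lower, and of 8 other iron uptake, export and chaperone genes 2 and 4. Heme synthesis and heme transport each had 1 higher and 2 lower of 8, and the iron-regulatory proteins had none. Of 10 other electrophile-induced genes, NQO1 among them, 4 were called higher and 0 lower. Of 6 genes of NRF2, BACH1 and their partners, 1 was higher and 1 lower.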
